A study of Mus musculus with 24 samples.

Results

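Immediate early genes are transcribed within minutes of a stimulus and mostly encode transcription factors, and 10 of them were followed here through mechanical overload of the mouse plantaris muscle. They were chosen by symbol: the NR4A orphan nuclear receptors Nr4a1, Nr4a2 and Nr4a3, the AP-1 subunits Fos, Fosb, Jun and Junb, the related ATF/CREB family factor Atf3, the zinc finger factor Egr1, and the immediate early response gene Ier2. Each was read from the probe set that carries only its symbol and has the highest mean, and these are 10 of the 19937 genes so represented on the array. All 10 were among the 14499 genes whose level was high enough to be tested in at least 1 group.

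RNA of the plantaris, a calf muscle, was hybridised to 24 Affymetrix whole-transcript arrays, 6 per group, which the labels call biological replicates. The groups were untreated wildtype mice, overloaded wildtype mice, untreated Mstn-/- mice and overloaded Mstn-/- mice, all 3 months old. Mstn-/- mice are knockouts for myostatin, a secreted inhibitor of muscle growth, and the labels do not say how the allele was made. Overload was imposed on both legs by taking out the soleus and most of the gastrocnemius under pentobarbitone anaesthesia (50 mg/kg), and 1 plantaris per mouse was used, with 1000 ng of total RNA entering the labelling after ribosomal RNA removal. Control mice were left untreated, so overload cannot be told apart from surgery and anaesthesia. The duration of overload, the hour of sampling and the background strain are not stated in the sources used here.

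Immediate early genes need no new protein synthesis for their induction. In muscle they respond to contraction, stretch, injury and hormones, through the MAP kinase pathway and serum response factor, which act on Fos and Egr1, and through cyclic AMP, calcium and CREB, which act on the NR4A genes and on Fos. AP-1 is a dimer of FOS and JUN proteins. The NR4A receptors bind DNA without a known hormone ligand, are induced in muscle by exercise, and regulate genes of glucose and fat metabolism.

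Values are log2 intensities, on which a step of 1 is a doubling, and intensities of different probe sets cannot be set against each other as amounts of RNA. Differences come from limma with Benjamini-Hochberg adjustment over all 14499 genes, and a gene is called where the adjusted p is under 0.05. Array medians lay between 139 and 147 on the linear scale. The Mstn probe set, which checks the genotype labels, was 2.51-fold lower in untreated Mstn-/- than in untreated wildtype muscle with no overlap between arrays (adjusted p = 2.7e-08). Its position relative to the deletion is not known here. After overload it did not separate the genotypes (-0.15 ± 0.13, adjusted p = 0.39, arrays overlapping), and its mean was higher in untreated Mstn-/- (8.93) than in overloaded wildtype muscle (8.4), so it does not check the genotype labels of the 12 overloaded arrays. Overload also lowered it, 3.62-fold in wildtype and 1.6-fold in Mstn-/- muscle. The muscle fibre markers were present in every group, with all 12 above the level needed for testing.

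The promoters of the 3 NR4A genes and of Fos are shown because these genes share an element that answers to cyclic AMP and calcium through CREB. Each window holds the 250 bases before the transcription start in the RefSeq annotation of GRCm38.p6, written 5′ to 3′ in the direction of transcription, and 8 of the 10 genes had an entry. Capitals mark the core of the cyclic AMP response element, TGACG, or CGTCA where it lies on the other strand. The windows lie at chr15:101266596-101266845 on the plus strand for Nr4a1, chr2:57124004-57124253 on the minus strand for Nr4a2, chr4:48045055-48045304 on the plus strand for Nr4a3 and chr12:85473640-85473889 on the plus strand for Fos.
Nr4a1: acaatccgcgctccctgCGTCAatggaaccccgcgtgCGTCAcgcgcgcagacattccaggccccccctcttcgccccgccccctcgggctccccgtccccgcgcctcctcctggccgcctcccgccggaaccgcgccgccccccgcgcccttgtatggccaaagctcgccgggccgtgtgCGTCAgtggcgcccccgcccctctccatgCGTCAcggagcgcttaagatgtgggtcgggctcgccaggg
Nr4a2: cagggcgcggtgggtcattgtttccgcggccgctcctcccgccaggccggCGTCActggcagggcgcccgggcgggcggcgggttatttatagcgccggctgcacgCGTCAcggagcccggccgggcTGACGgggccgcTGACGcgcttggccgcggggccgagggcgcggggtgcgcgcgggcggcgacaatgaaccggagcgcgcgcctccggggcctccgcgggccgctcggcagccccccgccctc
Nr4a3: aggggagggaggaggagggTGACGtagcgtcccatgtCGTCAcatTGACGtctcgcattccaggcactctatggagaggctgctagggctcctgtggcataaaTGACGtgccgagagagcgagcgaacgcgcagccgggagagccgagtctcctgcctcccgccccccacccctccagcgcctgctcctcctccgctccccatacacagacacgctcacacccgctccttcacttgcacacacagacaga
Fos: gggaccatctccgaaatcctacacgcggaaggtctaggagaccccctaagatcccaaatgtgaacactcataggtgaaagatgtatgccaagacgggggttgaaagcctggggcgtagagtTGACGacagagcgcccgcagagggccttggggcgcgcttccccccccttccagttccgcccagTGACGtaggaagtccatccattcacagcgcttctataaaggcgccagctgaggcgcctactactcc

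The core occurred 4 times in each of the NR4A windows and 2 times in that of Fos. Over all 32851 promoter windows of the same length, 17.8% held the core on either strand at least once, 3.9% at least 2 times and 0.137% at least 4 times. Fosb, Junb and Atf3 had 1 core each and Jun had 0. The full palindromic element TGACGTCA, present in 1.55% of windows, was in none of the 8 windows, and neither were the AP-1 site TGANTCA (6.75% of windows), the CArG box bound by serum response factor (1.47%) or the NR4A monomer element AAAGGTCA (1.34%). The EGR site GCGNGGGCG, in 4.7% of windows, occurred once in each of the Nr4a1, Nr4a2 and Fosb windows. All motifs were searched on both strands, and the full element contains the core. These matches describe letters in the windows, not binding, and sequence outside the 250 bases was not searched.

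In untreated muscle all 3 NR4A receptors were lower in Mstn-/- than in wildtype mice, by 1.8-fold for Nr4a1, 2.81-fold for Nr4a2 and 1.79-fold for Nr4a3. With overload they rose in Mstn-/- muscle, by 1.37-fold, 3.42-fold and 2.34-fold. In wildtype muscle Nr4a1 fell, Nr4a2 rose less, and Nr4a3 did not pass the test.

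Nr4a1, also known as Nur77, is the best studied NR4A receptor in muscle and a regulator of glycolytic and oxidative genes. Its log2 intensity ran from 11.46 to 11.97 (median 11.71) in untreated wildtype muscle and from 10.41 to 11.09 (median 10.71) in overloaded wildtype muscle. It ran from 10.07 to 11.23 (median 11.06) in untreated Mstn-/- muscle and from 11.12 to 11.61 (median 11.3) in overloaded Mstn-/- muscle. Every untreated wildtype array was therefore above every overloaded wildtype array and every untreated Mstn-/- array. Overload lowered Nr4a1 1.95-fold in wildtype muscle (log2 difference -0.97 ± 0.15, SE; adjusted p = 4.2e-06) and raised it in Mstn-/- muscle (0.45 ± 0.15; adjusted p = 0.013), where the arrays of the groups overlapped. Because this is bulk tissue, a lower level from fewer cells that express a gene cannot be told apart from less RNA per cell. After overload the genotype order was turned round. Nr4a1 was then 1.49-fold higher in Mstn-/- than in wildtype muscle, with no overlap (adjusted p = 0.0045), whereas before it had been lower by 0.84 ± 0.15 on the log2 scale (adjusted p = 0.00024).

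The order of the group means for Nr4a1 was untreated wildtype, overloaded Mstn-/-, untreated Mstn-/- and overloaded wildtype. The neighbours overloaded Mstn-/- and untreated wildtype differed by -0.39 ± 0.15 (adjusted p = 0.029). Untreated Mstn-/- and overloaded wildtype muscle, the neighbours at the low end, differed by 0.12 ± 0.15 (adjusted p = 0.51), less than the spread between arrays.

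Nr4a2, also known as Nurr1, showed the largest rise with overload among the 10 genes, in Mstn-/- muscle. Its log2 intensity ran from 8.58 to 9.96 (median 9.41) in untreated and from 9.63 to 10.56 (median 10) in overloaded wildtype muscle. The Mstn-/- arrays ran from 7.47 to 8.14 (median 8) untreated and from 9.36 to 10.04 (median 9.57) after overload. The untreated Mstn-/- arrays were thus below all the other 18 arrays. Overload raised Nr4a2 by 1.77 ± 0.18 in Mstn-/- muscle (adjusted p = 4.8e-09) and by 0.68 ± 0.18 in wildtype muscle (1.6-fold, adjusted p = 0.0017). Its shortfall in untreated Mstn-/- muscle was -1.49 ± 0.18 (adjusted p = 9.6e-07).

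After overload, Nr4a2 no longer passed the test between genotypes. The difference was -0.39 ± 0.18, with a 95% interval of -0.76 to -0.03 and an adjusted p of 0.088. This call turned on single arrays: it passed without replicate 4 of the overloaded Mstn-/- group (-0.47, adjusted p = 0.046), without replicate 6 of the overloaded wildtype group (-0.48, adjusted p = 0.047) and without replicate 6 of the untreated wildtype group (adjusted p = 0.045). In the order of group means, overloaded wildtype, overloaded Mstn-/- and untreated wildtype muscle were neighbours that did not pass (0.28 ± 0.18 for the last pair, adjusted p = 0.17). Untreated Mstn-/- muscle stood apart, 4.5-fold below overloaded wildtype muscle (adjusted p = 4.8e-11).

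Nr4a3, also known as NOR-1, is an NR4A receptor strongly induced by exercise in muscle. Its log2 intensity ran from 8.23 to 9.15 (median 8.75) in untreated and from 7.71 to 9.01 (median 8.51) in overloaded wildtype muscle. Without myostatin it ran from 7.23 to 8.29 (median 7.9) untreated and from 8.7 to 9.44 (median 9.13) after overload. The wildtype groups overlapped broadly, while every overloaded Mstn-/- array was above every untreated one. Overload raised Nr4a3 by 1.23 ± 0.19 in Mstn-/- muscle (adjusted p = 6.1e-06). In wildtype muscle the difference was -0.29 ± 0.19, with a 95% interval of -0.69 to 0.11 and an adjusted p of 0.19.

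The genotype difference of Nr4a3 also turned round. It was lower in untreated Mstn-/- muscle by 0.84 ± 0.19 on the log2 scale (adjusted p = 0.0027) and 1.6-fold higher in overloaded Mstn-/- muscle (adjusted p = 0.0076). Overloaded Mstn-/- and untreated wildtype muscle, the highest groups, differed by 0.39 ± 0.19 (adjusted p = 0.081). Untreated Mstn-/- muscle was 1.46-fold below overloaded wildtype muscle (adjusted p = 0.015).

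**Figure D1:**
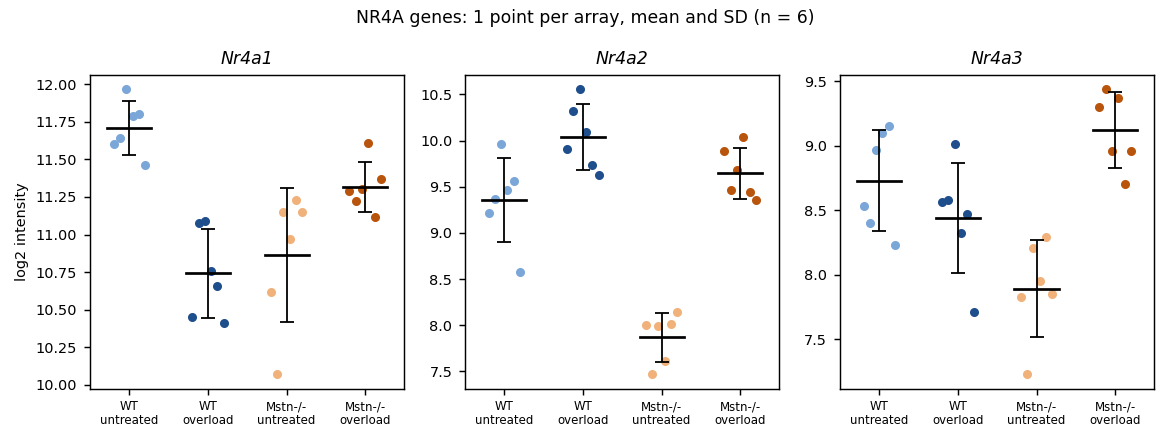
Log2 intensity of Nr4a1, Nr4a2 and Nr4a3 in the 4 groups, with 1 point per array, the group mean as a bar and the SD as whiskers (n = 6). Nr4a1 is highest in untreated wildtype muscle (11.46 to 11.97), and the untreated Mstn-/- arrays of Nr4a2 (7.47 to 8.14) sit below all the other arrays.

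Whether the response to overload itself differed between genotypes was tested as an interaction. The signed log2 difference, overloaded minus untreated, was higher in Mstn-/- than in wildtype muscle by 1.42 ± 0.22 for Nr4a1 (2.68-fold, adjusted p = 7e-05), by 1.09 ± 0.25 for Nr4a2 (2.14-fold, adjusted p = 0.0037) and by 1.51 ± 0.27 for Nr4a3 (2.86-fold, adjusted p = 0.00041). For Nr4a1 this joins a fall in wildtype to a smaller rise in Mstn-/- muscle, for Nr4a2 it sets a larger rise against a smaller one, and for Nr4a3 a rise against a difference that did not pass. In absolute size these differences lay at the 99.9th, 99.6th and 99.9th percentile of all genes tested. They were 3 calls among the 10 genes, all with the higher signed response in Mstn-/- muscle, against 17.4% of all genes called in either direction and 8.92% in that direction. All 3 calls were also made when each of the 24 arrays was left out in turn. The interaction shares its untreated arrays with the genotype comparison in untreated muscle, so the lower untreated levels and the differing responses are not separate evidence.

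Fos and Fosb rose with overload in both genotypes. Fos, the AP-1 subunit whose induction defined the immediate early response, ran from 7.21 to 8.2 (median 7.55) in untreated and from 7.98 to 8.92 (median 8.44) in overloaded wildtype muscle. The Mstn-/- arrays ran from 7.45 to 8.64 (median 8.21) untreated and from 8.26 to 9.41 (median 8.6) overloaded. The groups overlapped in both genotypes. The rise was 0.89 ± 0.2 in wildtype (1.85-fold, adjusted p = 0.00041) and 0.67 ± 0.2 in Mstn-/- mice (1.59-fold, adjusted p = 0.0062). In untreated muscle Fos differed by 0.48 ± 0.2 between Mstn-/- and wildtype (95% interval 0.06 to 0.9, adjusted p = 0.097). That difference passed without replicate 4 of the untreated Mstn-/- group (0.6, adjusted p = 0.037) or without replicate 3 of the untreated wildtype group (0.6, adjusted p = 0.042).

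Fosb, a second FOS-type subunit, had the widest spread between arrays of the same group. It ran from 7.71 to 8.52 (median 8.07) in untreated and from 8.42 to 10.32 (median 8.78) in overloaded wildtype muscle. Without myostatin it ran from 7.81 to 8.88 (median 8.09) untreated and from 8.44 to 10.1 (median 8.89) overloaded. In each overloaded group 2 arrays stood above the other 4, at 9.85 and 10.32 in wildtype and at 9.72 and 10.1 in Mstn-/- muscle. Overload raised Fosb by 1.04 ± 0.29 in wildtype (2.06-fold, adjusted p = 0.0031) and by 0.89 ± 0.29 in Mstn-/- mice (1.85-fold, adjusted p = 0.011).

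The JUN partners differed less. Jun, the main dimer partner of FOS proteins, ran from 9.65 to 9.97 (median 9.81) in untreated and from 9.76 to 10.3 (median 10.06) in overloaded wildtype muscle. The Mstn-/- arrays ran from 9.82 to 10.21 (median 9.87) untreated and from 9.82 to 10.2 (median 10.04) overloaded. The groups overlapped in both genotypes, and the rise in wildtype muscle was 1.17-fold (0.23 ± 0.09, adjusted p = 0.027). This call was lost when any 1 of 6 arrays was left out, replicate 1, 2 or 6 of the untreated or replicate 1, 3 or 4 of the overloaded wildtype group, with adjusted p from 0.055 to 0.085, and it was lost with array weights. In Mstn-/- muscle the difference was 0.11 (95% interval -0.07 to 0.29, adjusted p = 0.28).

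Junb, a JUN-type subunit that in muscle fibres supports fibre size, ran from 7.42 to 7.83 (median 7.56) in untreated and from 7.52 to 7.9 (median 7.76) in overloaded wildtype muscle. Without myostatin it ran from 7.43 to 7.6 (median 7.47) untreated and from 7.36 to 7.74 (median 7.52) overloaded. All 4 groups overlapped. The difference with overload was 0.14 (95% interval -0.01 to 0.29, adjusted p = 0.095) in wildtype and 0.05 (95% interval -0.1 to 0.2, adjusted p = 0.59) in Mstn-/- muscle. The wildtype difference passed without replicate 3 of the untreated group (adjusted p = 0.026) or replicate 4 of the overloaded group (adjusted p = 0.034). Between genotypes after overload Junb differed by -0.18 ± 0.07 (adjusted p = 0.053), and 6 of the 24 fits with 1 array left out passed, with adjusted p from 0.018 to 0.049: those without replicate 1 or 4 of the overloaded Mstn-/- group, replicate 2 or 3 of the untreated wildtype group, or replicate 4 or 6 of the overloaded wildtype group.

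Atf3, a stress-induced factor that pairs with JUN proteins and represses inflammatory genes, rose in both genotypes. It ran from 8.24 to 9.05 (median 8.66) in untreated and from 9.16 to 9.96 (median 9.58) in overloaded wildtype muscle. The Mstn-/- arrays ran from 8.28 to 8.88 (median 8.64) untreated and from 9.29 to 10.06 (median 9.58) overloaded. Overloaded and untreated arrays did not overlap in either genotype. Overload raised Atf3 by 0.91 ± 0.16 in wildtype (1.88-fold, adjusted p = 1.1e-05) and by 1 ± 0.16 in Mstn-/- mice (1.99-fold, adjusted p = 4.9e-06). The responses differed by 0.08 ± 0.22 on the log2 scale, with a 95% interval of -0.37 to 0.53 (adjusted p = 0.86).

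Egr1, a zinc finger factor induced by growth factors and by stretch, ran from 7.91 to 8.65 (median 8.29) in untreated and from 9.03 to 9.82 (median 9.28) in overloaded wildtype muscle. Without myostatin it ran from 7.99 to 9.21 (median 8.67) untreated and from 8.63 to 9.73 (median 9.05) overloaded. The wildtype groups did not overlap and the Mstn-/- groups did. Egr1 rose by 1.05 ± 0.19 in wildtype (2.07-fold, adjusted p = 1.9e-05) and by 0.59 ± 0.19 in Mstn-/- mice (1.5-fold, adjusted p = 0.0086). The difference between these responses, -0.47 ± 0.26, did not pass (95% interval -1.01 to 0.08, adjusted p = 0.25).

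Ier2, a small nuclear protein of the immediate early response, lay close to the level needed for testing, with group means of 116 to 138 on the linear scale against a minimum of 98.9. It ran from 6.65 to 7 (median 6.87) in untreated and from 6.87 to 7.26 (median 7.11) in overloaded wildtype muscle. The Mstn-/- arrays ran from 6.77 to 7.29 (median 6.9) untreated and from 6.96 to 7.13 (median 7.03) overloaded. The groups overlapped in both genotypes. The rise in wildtype muscle was 1.19-fold (0.25 ± 0.08, adjusted p = 0.0072). In Mstn-/- muscle the difference was 0.11 (95% interval -0.05 to 0.28, adjusted p = 0.21), and it passed without replicate 5 of the untreated group (0.18, adjusted p = 0.028).

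**Figure D2:**
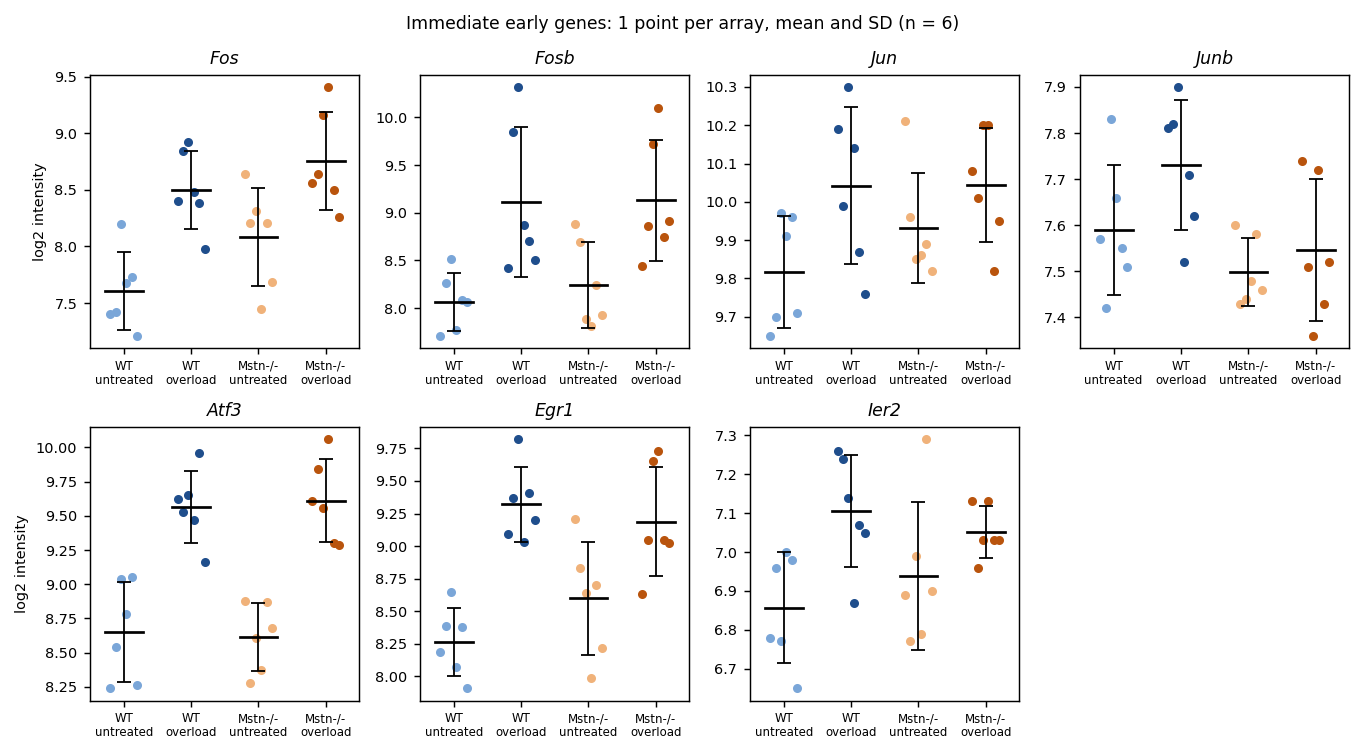
Log2 intensity of Fos, Fosb, Jun, Junb, Atf3, Egr1 and Ier2 in the 4 groups, with 1 point per array, the group mean as a bar and the SD as whiskers (n = 6), on a separate axis for each gene. The overloaded groups of Atf3 lie wholly above the untreated ones, and in each overloaded group 2 Fosb arrays stand at 9.72 or higher.

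In wildtype muscle 8 of the 10 genes were called with overload, 7 higher and 1 lower, where 65.9% of all tested genes were called (30.3% higher, 35.6% lower). In Mstn-/- muscle 7 were called, all higher, against 60.6% of all tested genes (27.1% higher, 33.5% lower). The called share of the 10 genes was thus near that of the whole array in both genotypes. Their median log2 difference was 0.465 against -0.0565 for all genes in wildtype muscle, and 0.629 against -0.0632 in Mstn-/- muscle. Groups that did not overlap were found for 3 genes in wildtype (Egr1, Atf3 and Nr4a1; 43% of all genes) and for 3 genes in Mstn-/- muscle (Atf3, Nr4a2 and Nr4a3; 39.9% of all genes).

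Between genotypes, 3 of the 10 genes were called in untreated muscle, the NR4A receptors, all lower in Mstn-/- muscle, where 21.3% of all genes were called and 10.2% were lower. Nr4a1 and Nr4a2 were the 2 without overlap between genotypes, against 12% of all genes. After overload 2 of the 10 were called, Nr4a1 and Nr4a3, both higher in Mstn-/- muscle, where 36.5% of all genes were called and 17.5% were higher. Only Nr4a1 was without overlap, against 15.5% of all genes. This count was 4 without replicate 4 of the overloaded Mstn-/- group or without replicate 6 of the overloaded wildtype group, with Junb and Nr4a2 added. None of the 7 genes outside the NR4A family passed between genotypes in either state, or in the interaction.

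**Figure D3:**
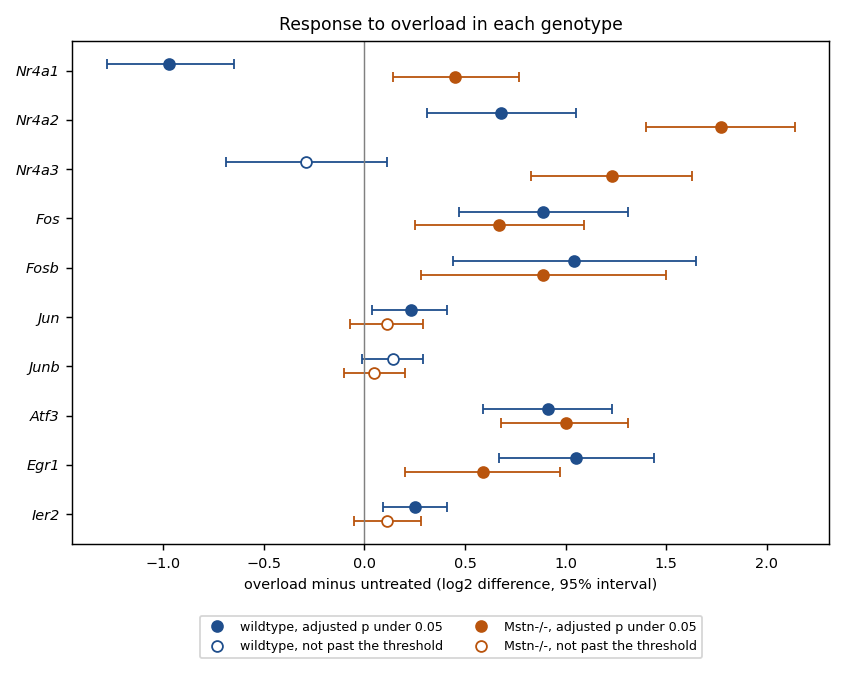
Log2 difference between overloaded and untreated muscle for the 10 genes in wildtype (blue) and Mstn-/- muscle (orange), with 95% intervals, filled where the limma adjusted p was under 0.05. Nr4a1 lies at -0.97 in wildtype and at 0.45 in Mstn-/- muscle, while the intervals of the 2 genotypes overlap for the 7 genes outside the NR4A family.

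Most of the 10 genes varied more between mice of the same group than other genes did. The SD within groups was 0.573 for Fosb, 0.393 for Fos, 0.375 for Nr4a3, 0.36 for Egr1, 0.346 for Nr4a2, 0.298 for Atf3 and 0.295 for Nr4a1, against a median of 0.117 over all tested genes. These 7 genes stood at or above the 97.7th percentile of all genes. Jun (0.162), Ier2 (0.142) and Junb (0.131) lay nearer to the middle, at the 82.3rd, 72nd and 63.2nd percentile.

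The variation within groups was shared. Deviations from the group mean were correlated over the 24 arrays for each of the 45 pairs of genes, with permutation p-values adjusted over the 45. All 45 coefficients were above 0, 27 pairs passed by Pearson's r, and 15 passed by both Pearson's r and Spearman's rho. All genes on 1 array share its RNA sample, labelling and normalization. The share of other gene pairs that would pass is not given, so these counts are not set against the whole array. Replicate 3 of the overloaded wildtype group was the highest of its group for Fos, Fosb, Jun, Junb, Egr1, Nr4a1, Nr4a2 and Nr4a3, though not for Atf3 or Ier2. Its array weight, 0.39, was the lowest, together with that of replicate 4 of its group.

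Among Fos, Fosb, Egr1 and Jun, the strongest relation was that of Fos and Egr1. They had r = 0.84 (adjusted permutation p = 3e-04) and rho = 0.64 (adjusted permutation p = 0.016), and r was 0.8 without the 2 arrays farthest from the median of Fos. Fosb and Egr1 had r = 0.81 and rho = 0.76 (adjusted permutation p = 3e-04 and 0.0028), with r = 0.76 without the 2 farthest arrays. Fos and Fosb had r = 0.77 and rho = 0.67 (adjusted permutation p = 0.00052 and 0.013), with r = 0.72 without the 2 farthest arrays. Fos and Jun had r = 0.74 and rho = 0.74 (adjusted permutation p = 0.00052 and 0.0028), and r was again 0.72 without the 2 farthest arrays. Fosb and Jun had r = 0.59 and rho = 0.57 (adjusted permutation p = 0.024 and 0.029), with r = 0.45 without the 2 farthest arrays, and Jun and Egr1 passed by r (0.54, adjusted permutation p = 0.024) but not by rho (0.43, adjusted permutation p = 0.089). Within the single groups of 6 arrays, r for Fos and Egr1 ran from 0.63 to 0.97 and r for Fosb and Egr1 from 0.72 to 0.98.

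The NR4A genes were also correlated with each other. Nr4a1 and Nr4a2 had r = 0.7 and rho = 0.77 (adjusted permutation p = 3e-04 and 0.0028), with r = 0.73 without the 2 farthest arrays. Nr4a1 and Nr4a3 had r = 0.74 and rho = 0.66 (adjusted permutation p = 0.00052 and 0.016), with r = 0.66 without the 2 farthest arrays. Nr4a2 and Nr4a3 had r = 0.7 and rho = 0.6 (adjusted permutation p = 0.0019 and 0.028), with r = 0.68 without the 2 farthest arrays. Within single groups, r for Nr4a1 and Nr4a2 ran from 0.67 to 0.95.

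Between these genes and the NR4A family the relations were uneven. Egr1 had r = 0.09 with Nr4a1 (rho = 0.27, adjusted permutation p = 0.74 and 0.29) and 0.17 with Nr4a3 (rho = 0.09, adjusted permutation p = 0.5 and 0.8). These low values join groups that differed. In untreated and overloaded wildtype muscle r was 0.77 and 0.68 with Nr4a1, and 0.43 and 0.64 with Nr4a3. In untreated and overloaded Mstn-/- muscle it was -0.48 and 0.55 with Nr4a1, and -0.19 and 0 with Nr4a3. Fos and Nr4a2 had r = 0.69 and rho = 0.69 (adjusted permutation p = 0.0019 and 0.012), with r = 0.59 without the 2 farthest arrays. By group, r was 0.91 and 0.95 in untreated and overloaded wildtype muscle, and 0.21 and 0.73 in untreated and overloaded Mstn-/- muscle. Fos and Nr4a1 had r = 0.3 and rho = 0.49 (adjusted permutation p = 0.26 and 0.062). In the same order of groups their r was 0.98, 0.93, -0.32 and 0.61. Atf3 and Nr4a3 had r = 0.74 and rho = 0.6 (adjusted permutation p = 0.001 and 0.027), with r = 0.75 without the 2 farthest arrays. Whether coefficients differed between pairs was not tested.

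**Figure D4:**
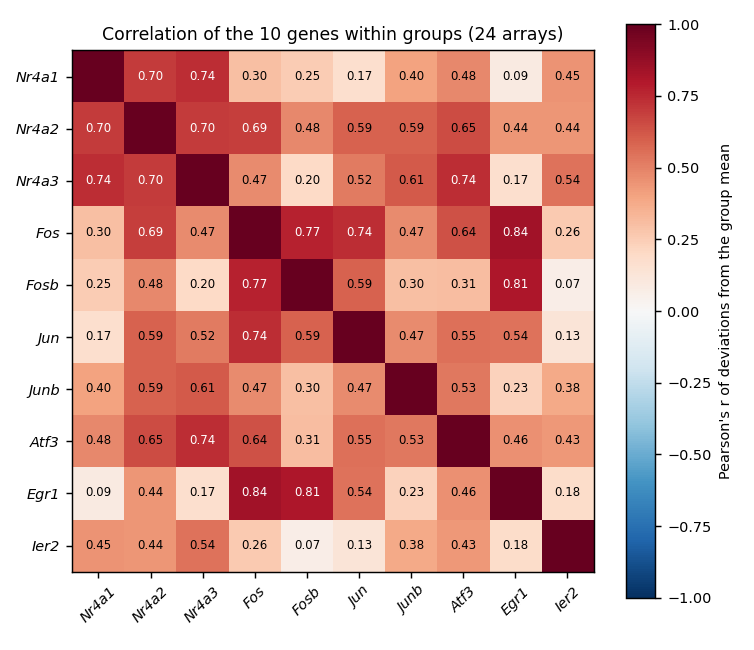
Pearson's r between deviations from the group mean for every pair of the 10 genes over 24 arrays, on a colour scale from -1 to 1. All 45 coefficients are above 0, from 0.07 for Fosb and Ier2 to 0.84 for Fos and Egr1.

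The genes whose deviations were most like those of 4 of these genes are given as a description, over the same 24 arrays and with no test. Nr4a1 was most like Sik1 (r = 0.87), a kinase induced by CREB, Errfi1 (0.85), a feedback inhibitor of EGF receptor, the metallothioneins Mt2 (0.82) and Mt1 (0.81), and Zfp36 (0.78), an mRNA-destabilising protein. Nr4a3 was most like Klf6 (0.8), Btg2 (0.78), Tpst2 (0.74), Irs2 (0.72) and Zfp36 (0.69). Fos was most like Csf2rb2 (0.83), Gas6 (0.8), Ubtd2 (0.75), Tshz2 (0.75) and Btg2 (0.75), and Egr1 was most like Tshz2 (0.86), Foxp1 (0.79), Elk3 (0.78), Mrgprf (0.78) and Ebf1 (0.77). In response to overload Sik1 differed by 0.24 in wildtype (adjusted p = 0.055) and rose by 0.71 in Mstn-/- muscle (adjusted p = 3.6e-06). Irs2, an insulin receptor substrate, fell by 0.85 in wildtype muscle (adjusted p = 3.5e-10) and differed by -0.01 in Mstn-/- muscle (adjusted p = 0.93). Of the others most like Nr4a1 or Nr4a3, Errfi1 (0.3 in wildtype and 0.74 in Mstn-/- muscle) and Btg2 (0.47 and 0.76) also had the higher value in Mstn-/- muscle. Mt2 (0.58 and 0.5), Mt1 (0.31 and 0.34), Zfp36 (0.26 and 0.3), Klf6 (0.69 and 0.66) and Tpst2 (0.25 and 0.27) had similar values in both genotypes. The interaction is not given for these genes.

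Other genes of the same pathways were taken from lists, whose counts stand against 30.3% higher and 35.6% lower of all genes in wildtype, 27.1% and 33.5% in Mstn-/- muscle, and 8.92% and 8.44% with a higher or lower signed response in Mstn-/- muscle. Among 16 other AP-1 and bZIP factors, 3 were higher and 8 lower with overload in wildtype muscle, and 2 higher and 8 lower in Mstn-/- muscle, a called share of 68.8% and 62.5%, near that of the array. The FOS-type subunit Fosl2 (1.62-fold and 1.75-fold) and Jund (1.49-fold and 1.33-fold) rose in wildtype and Mstn-/- muscle respectively. Among those that fell were Ddit3 in wildtype (1.23-fold) and Atf4 in Mstn-/- muscle (1.33-fold). Between genotypes Fosl2 was lower in Mstn-/- muscle, untreated (-0.48, adjusted p = 0.001) and overloaded (-0.36, adjusted p = 0.0053). Cebpd was 2.34-fold higher in untreated Mstn-/- muscle, and its signed response was lower there (-0.53, adjusted p = 0.0062). Among 30 other immediate early response genes, 20 were higher and 3 lower in wildtype muscle, and 22 higher and 3 lower in Mstn-/- muscle, a called share of 76.7% and 83.3%. The growth arrest gene Gadd45g was among those that fell, 1.81-fold in wildtype and 1.72-fold in Mstn-/- muscle. The signed response was higher in Mstn-/- muscle for 3 genes of this list and lower for 3, together 20%. For Per1, a clock gene with cyclic AMP elements, it was higher by 1.05 ± 0.16 (adjusted p = 5.3e-05), from a fall of -0.31 in wildtype and a rise of 0.74 in Mstn-/- muscle, and Per1 was 1.4-fold lower in untreated Mstn-/- muscle. Ccn1, a stretch-induced matricellular protein, rose in both genotypes, 1.88-fold less in Mstn-/- muscle (adjusted p = 0.0014).

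Upstream of these genes, 18 MAP kinases and dual-specificity phosphatases split into 4 higher and 8 lower in wildtype muscle and 7 higher and 7 lower in Mstn-/- muscle (66.7% and 77.8% called). Dusp6, a MAP kinase phosphatase, rose 1.8-fold and 1.53-fold. A list of 11 genes around serum response factor holds cytoskeletal genes such as Actb and Vcl besides regulators. Its counts therefore do not describe upstream factors alone. Of the 11, 6 were higher and 2 lower in wildtype muscle, and 6 higher and 1 lower in Mstn-/- muscle (72.7% and 63.6% called). Srf itself was 1.32-fold and 1.22-fold lower. Among 24 regulators of CREB and calcium signalling, 4 were higher and 13 lower in wildtype muscle, and 5 higher and 12 lower in Mstn-/- muscle (70.8% called in each). Of these 24, the signed response was higher in Mstn-/- muscle for 6 and lower for 2. Crem, a cyclic AMP responsive factor, had a difference in response of 0.63 ± 0.12 (adjusted p = 0.00077), with a fall of -0.28 in wildtype and a rise of 0.35 in Mstn-/- muscle. Camk2a, a calcium-dependent kinase, fell in both genotypes, by 1.19 and 0.51, and so fell less in Mstn-/- muscle (adjusted p = 0.00055). The 13 heat shock and stress chaperones counted 7 higher and 2 lower in wildtype muscle and 6 higher and 2 lower in Mstn-/- muscle (69.2% and 61.5% called).

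Muscle metabolic genes that the literature links to NR4A receptors were followed as a list of 20. With overload 19 were lower and 1 higher in wildtype muscle, with a median log2 difference of -0.8. In Mstn-/- muscle 12 were lower and 2 higher, with a median of -0.31. The signed response was higher in Mstn-/- muscle for 14 of the 20, 70% against 8.92% of all genes, and lower for 0, with a median difference of 0.44 against -0.0159 over all genes. All 14 fell with overload in wildtype muscle; in Mstn-/- muscle 7 of them fell less, 5 did not pass the test and 2, Ucp3 and Ppargc1b, rose. The rise of Ppargc1b, a relative of Ppargc1a, did not pass under quantile normalization (adjusted p = 0.16) or with arrays shifted to the same median (adjusted p = 0.074). Ppargc1a, the coactivator of mitochondrial biogenesis, fell by 1.31 on the log2 scale in wildtype muscle and differed by 0.08 in Mstn-/- muscle, a difference in response of 1.38 ± 0.17 (adjusted p = 4.4e-06). Ucp3, a mitochondrial carrier, fell by 1.24 in wildtype muscle and rose by 0.45 in Mstn-/- muscle, a difference of 1.69 ± 0.25 (adjusted p = 5.2e-05). Lpl, which releases fatty acids from lipoproteins, fell in both genotypes, by 1.13 and 0.32. Among 12 muscle fibre markers the signed response was higher in Mstn-/- muscle for 4 and lower for 2. That is a called share of 50%, with a median difference of 0.18. Whether the metabolic genes differ in this from other genes of muscle fibres was not tested.

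**Figure D5:**
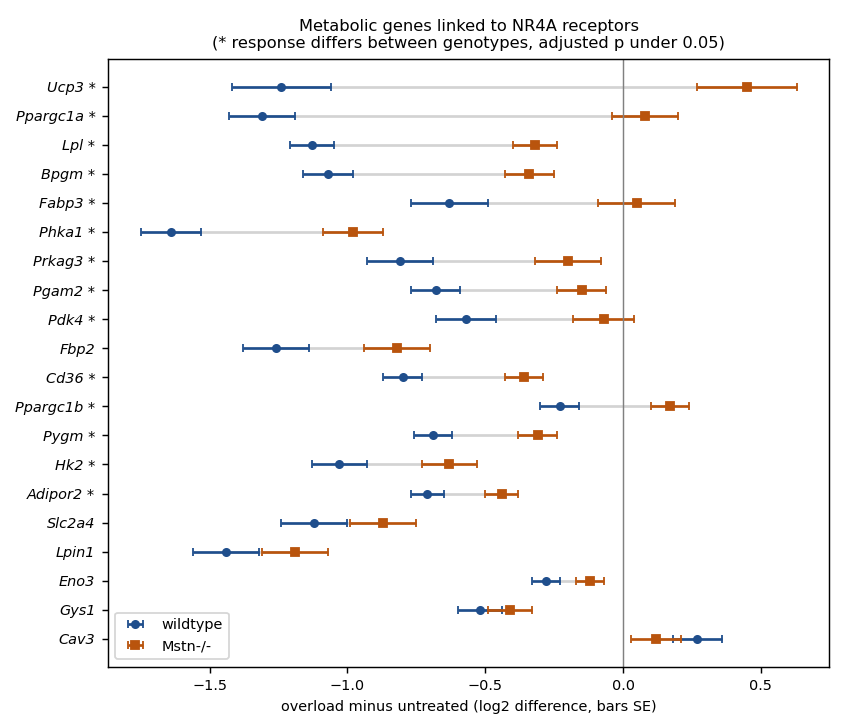
Log2 difference between overloaded and untreated muscle for 20 metabolic genes in wildtype (blue circles) and Mstn-/- muscle (orange squares), with SE bars, ordered by the size of the difference between genotypes and with a star where that difference passed. The wildtype values of 19 genes lie below 0, and 14 genes are starred.

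In untreated muscle 2 of these 20 genes were higher and 6 lower in Mstn-/- than in wildtype muscle, against 11.1% and 10.2% of all genes. The other 12 did not pass, and the median log2 difference was -0.03. After overload 13 were higher and 0 lower, against 17.5% and 19% of all genes, with a median of 0.39. After overload this was the direction of Nr4a1 and Nr4a3, while in untreated muscle most of the 20 did not pass. Nr4a2 differed by -0.39 between genotypes after overload and did not pass. Within genotypes the directions were mixed. With overload in Mstn-/- muscle 12 of the 20 fell and 2 rose (median -0.31), while Nr4a1, Nr4a2 and Nr4a3 rose (0.45, 1.77 and 1.23). In wildtype muscle 19 fell, as did Nr4a1 (-0.97), while Nr4a2 rose (0.68) and Nr4a3 did not pass (-0.29). All of these values use the same arrays, so the NR4A levels and the metabolic genes are not independent of each other. Whether the receptors act on these genes here was not tested.

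Cell type markers moved with overload too. The summed intensity of 12 macrophage markers ran from 3007 to 4165 in untreated and from 15455 to 22604 in overloaded wildtype muscle, and from 4474 to 5714 and from 10553 to 19874 in Mstn-/- muscle. Of the 12, 11 were higher with overload in each genotype, Cd163 was lower in Mstn-/- muscle (-0.44, adjusted p = 0.00031), and the signed response was lower in Mstn-/- muscle for 8. Of 9 markers of fibroblasts and fibro-adipogenic progenitors, summed from 14340 to 18879 in untreated and from 34481 to 41797 in overloaded wildtype muscle, 8 were higher in wildtype muscle and Gsn was lower in both genotypes (-0.43 and -0.69). In Mstn-/- muscle their sum went from 16418 to 20322 untreated to 26810 to 31309 overloaded, and 7 were higher. Of 10 endothelial markers 8 were higher and Flt1 was lower (-0.73 in wildtype and -0.42 in Mstn-/- muscle) in each genotype, with sums from 6496 to 8101 and from 7882 to 10150 in wildtype, and from 6097 to 7076 and from 8724 to 10010 in Mstn-/- muscle. Of 12 muscle fibre markers 7 were lower and 1 was higher in wildtype muscle, summed from 118948 to 121173 untreated and from 84966 to 104431 overloaded, and 8 were lower and 2 higher in Mstn-/- muscle, from 117216 to 124892 and from 110931 to 118016. The higher ones were Des in wildtype muscle (0.11, adjusted p = 0.037, but adjusted p = 0.11 with arrays shifted to the same median) and Myh1 (0.3) and Myh2 (0.23) in Mstn-/- muscle. Of 7 neutrophil markers, S100a8, Ly6g, Retnlg and Cxcr2 stayed below the level needed for testing in all groups, and 3 were tested. Csf3r was 1.72-fold higher in wildtype (adjusted p = 1.1e-05) and 1.73-fold higher in Mstn-/- muscle (adjusted p = 1.4e-05), and Mmp9 was 1.2-fold higher in wildtype muscle (adjusted p = 0.03). The 7 summed to 437 to 537 untreated and 568 to 1326 overloaded in wildtype, and to 495 to 515 and 550 to 865 in Mstn-/- muscle. The part of these markers in the responses of the 10 genes was not tested.

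Within groups, the mean level of each of 5 lists was set against each of the 10 genes. The lists were the macrophage, fibroblast and progenitor, endothelial and muscle fibre markers, and the heat shock and stress chaperones. The neutrophil markers were not among them. This gave 50 relations whose p-values were adjusted together. These relations were chosen after the values were seen. No NR4A gene passed with any list. Jun was lower on arrays with higher fibre markers (r = -0.64, rho = -0.69; adjusted permutation p = 0.013 and 0.025; r = -0.7 without the 2 farthest arrays), and so did Fos (r = -0.5, rho = -0.79; adjusted permutation p = 0.046 and 0.0055; r = -0.77 without the 2 farthest arrays). Passing by r alone were Egr1 with the fibre markers (r = -0.54, rho = -0.54; adjusted permutation p = 0.024 and 0.12), and Fosb (r = 0.62, rho = 0.61; adjusted permutation p = 0.012 and 0.058) and Egr1 (r = 0.58, rho = 0.56; adjusted permutation p = 0.046 and 0.11) with the fibroblast and progenitor markers. Atf3 with the fibre markers passed by rho alone (r = -0.33, rho = -0.66; adjusted permutation p = 0.38 and 0.038). Without the 2 farthest arrays r was -0.62, 0.61, 0.5 and -0.55 for these relations in turn.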

How the data were processed

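RNA from 24 plantaris muscles was measured on 1 array each. The authors deposited 1 intensity per probe set and array, summarised by RMA (no version stated) according to the submitters' processing notes. RMA subtracts background and equalises the arrays' distributions, which reduces differences in overall RNA amount. The plan assumed log2 values, but the deposited intensity values were linear (4.72 to 25588.9), so log2 was taken without a pseudocount. Of 34760 probe sets, 21640 carry 1 symbol, 1321 several and 11799 none, and 21620 of the first matched RefSeq. A gene took its single-symbol probe set with the highest mean, giving 19937 genes. It was tested if at least 1 group mean exceeded the 30th percentile of annotated probe sets (intensity 98.9), leaving 14499. limma 3.58.1 (R 4.3.3) fitted the 4 group means with eBayes and Benjamini-Hochberg adjustment over all tested genes at 0.05. Precision is limited by 6 arrays per group. Simulated data for the wildtype overload comparison had 200 of 14499 genes changed, far fewer than were called in the data. There 28.4% of changes of 0.2 (log2) were recovered, 58.8% of 0.3, 90% of 0.5 and 98.8% of 1, with 4.9% false calls. Correlations used 1e+05 permutations, and motifs were searched in RefSeq promoter windows. Alternatives were 2 normalizations, 2 filters, the mean of a gene's probe sets, array weights, a trended robust variance, fits of only the groups compared, a replicate block and leaving out each array. The 10 genes and all lists were chosen with earlier results of these data known. Named list genes were up to 2 per direction with the smallest adjusted p, the metabolic list shown whole; for Fos, Egr1, Nr4a1 and Nr4a3 the 5 genes with the highest r, without predicted-model symbols. Some genes of the lists are not reported here.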

Additional observations from a re-analysis of the deposited data

Results flagged for a closer look

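The response to overload of Nr4a1, Nr4a2 and Nr4a3 differed between genotypes, tested as an interaction in limma, by 1.42, 1.09 and 1.51 on the log2 scale, with the higher signed difference in Mstn-/- muscle. In untreated Mstn-/- muscle, Jun of replicate 1 was far above the other 5 arrays of its group, at 10.21 against 9.96 for the nearest, a gap of 0.636 of the group's range. This was 1 of 40 sets of 6 arrays examined, and chance marks about 1 in 20.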

How the results depend on the processing

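The 50 differences (10 genes in 5 comparisons) were recomputed under 33 alternatives, 24 of which left out 1 array. Of 1645 values, 1621 kept their side of the threshold, 7 lost the call, 17 gained it and 0 were counted as reversed. Differences that were not called could change sign and still count as unchanged. That of Fosb between genotypes after overload, for example, ran from -0.17 to 0.26. Ier2 was not tested under the stricter filter, which gives fewer values than 50 times 33. The number of the 10 genes called between genotypes after overload was 2, and ran from 2 to 4 when single arrays were left out. The other counts ran from 7 to 9 (overload in wildtype), from 7 to 8 (overload in Mstn-/-), from 3 to 4 (genotype, untreated) and from 3 to 3 (difference in response). Jun in wildtype overload lost its call under array weights (0.16, adjusted p = 0.11); the causes of this and of the calls that turned on single arrays were not tested. Junb between genotypes after overload gained a call under array weights (-0.21, adjusted p = 0.024) and under the stricter filter (-0.18, adjusted p = 0.044), where fewer genes are tested. With the replicate number as a block, 8, 7, 4, 2 and 3 of the 10 genes were called in the 5 comparisons, Fos in untreated muscle being added (0.48, adjusted p = 0.042), and 9512, 8688, 3004, 5219 and 2440 genes of the whole array. Correlations between the deviations of same-numbered arrays ran from -0.41 to 0.36, and 9 of 36 were over 0.1. In 9 of 72 combinations of an array with another group the array was closest to its own number. The labels name no litter, day or batch that equal numbers share, and whether they share one was not tested. Scaling moved the median of all genes by at most 0.017. In the simulated wildtype comparison, with 200 of 14499 genes changed, 28.4% of changes of 0.2 were recovered. In the data 65.9% of genes were called with overload in wildtype muscle, which makes the adjusted threshold less strict. The simulated share therefore does not carry over to Jun, Junb and Ier2, whose differences were close to 0.2.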
